A study of Sus scrofa with 75 samples.

Results

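The miR-183, miR-96 and miR-182 cluster is a group of 3 microRNA (miRNA) hairpins that lie close to each other on one strand of the pig genome. Its members were taken from the table of miRNA counts by mature name, as every row for miR-182, miR-183 or miR-96 in either arm, with the row of the largest total where a name had more than 1. This gave 3 members of 457 mature names, ssc-miR-182, ssc-miR-183 and ssc-miR-96-5p, each with a single row. Of the 3 members, 2 were read in 17 or more of the libraries with more than 2 reads on average, and these were tested among the 209 miRNAs that met both limits. The member below the limits was miR-96-5p.

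Small RNA was sequenced from peripheral blood mononuclear cells (PBMCs), the lymphocytes and monocytes of blood collected on a density gradient. The cells came from 13 pigs, each bled on day 11, on day 20 and on day 56 of life, which gives 39 libraries. The 8 control pigs were kept in farrowing crates without soil, and the 5 topsoil pigs had fresh topsoil in the pen every day from day 4 to day 20. Soil ended for the topsoil pigs with weaning at day 20, when both groups changed to soil-free nursery housing, so that day 11 and day 20 fell within the exposure and day 56 after it. The sample labels give no breed. Treatment and age were taken from the name of each column. The separate sample characteristics give the same age in 14 and the same treatment in 19 of the 39 libraries and were not used to group them. Both matched in 6 libraries. The description of each sample begins with its column name, and its title gives the same day, so that the characteristics alone differ. Why they differ cannot be told from the files. Changes of the members with age are therefore also given for those 14 libraries alone, and treatment comparisons for those 19, both chosen after seeing the data. Libraries of the same pig at different ages were little more alike than those of different pigs, with mean correlations of their deviations from the group means of 0.0672 over 39 pairs and -0.00756 over 228 pairs.

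MicroRNAs are short RNAs that guide Argonaute proteins to messenger RNAs, and the seed near the 5′ end does most of the pairing. The hairpins of this cluster are known as one transcription unit in vertebrates and are best known from sensory cells of the ear and the eye, while in lymphocytes miR-182 is known to be induced when helper T cells are activated. miR-486, against which the members are set here, is known as a miRNA of red blood cell precursors and red blood cells.

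The 3 hairpins lie on the plus strand of chromosome 18 of Sscrofa11.1, at chr18:18982269-18986913, a span of 4645 bases. The miR-183 hairpin is followed after 167 bases by that of miR-96, and miR-182 comes 4239 bases further on. In the RefSeq annotation the span overlaps 0 other genes. The nearest genes are UBE2H, which ends 49359 bases before the cluster, and NRF1, whose annotated span begins 21494 bases after it on the opposite strand. miR-486 lies on the minus strand at chr17:10758868-10758889, within the annotated span of ANK1, which encodes an ankyrin of the red cell membrane.

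**Figure D1:**
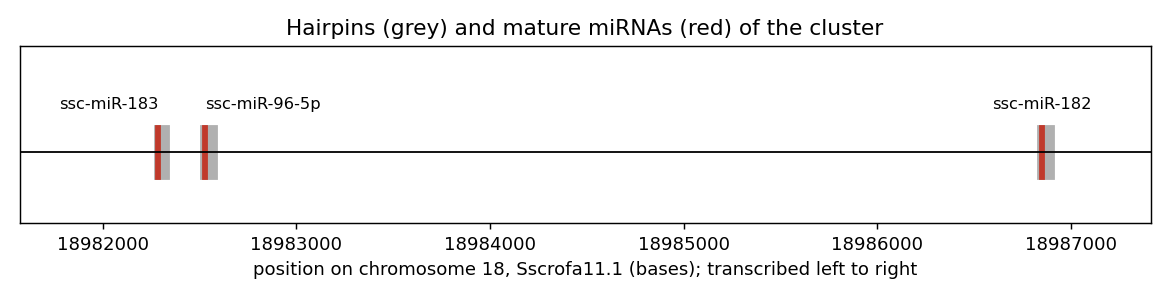
Map of the cluster on chromosome 18 of Sscrofa11.1, with the position in bases on the horizontal axis, hairpins in grey and mature miRNAs in red, drawn to scale. The miR-183 and miR-96 hairpins are 167 bases apart, and miR-182 lies 4239 bases beyond miR-96.

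The mature sequences of the 3 members are shown because they decide how far reads of one member could be taken for another. They were read from the genome at the RefSeq positions, chr18:18982274-18982296 for miR-183, chr18:18982516-18982538 for miR-96-5p and chr18:18986840-18986863 for miR-182. Each is written 5′ to 3′ with the seed, bases 2 to 8, in capitals, and miR-486 follows for comparison.
ssc-miR-183: uAUGGCACugguagaauucacug
ssc-miR-96-5p: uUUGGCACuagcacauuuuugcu
ssc-miR-182: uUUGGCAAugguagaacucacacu
ssc-miR-486: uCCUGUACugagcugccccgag
The 3 seeds are near copies of each other, but no pair is identical. Counted from the 5′ end, miR-183 and miR-96-5p differ within the seed by A2U, and miR-96-5p and miR-182 by C8A. miR-183 and miR-182 differ by both of these, yet over their first 23 bases they share 18, more than miR-183 and miR-96-5p with 13 or miR-96-5p and miR-182 with 12. Among 369 annotated pig mature miRNAs, 0 others carried the seed of any of the 3 members.

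The members differed widely in read number. miR-182 had between 2464 and 214062 counts per library, with a median of 55268, and it had rank 7 among all mature names by total. miR-183 had between 0 and 399 counts, with a median of 54, and it was at 0 in 3 libraries. miR-96-5p had 76 counts in all libraries together and was at 0 in 33 of the 39. The order miR-182 above miR-183 held in all 39 libraries. The 3 mature miRNAs are 23, 23 and 24 bases long, so read counts are compared without a correction for length, but ligation and amplification differ between miRNAs, and an order of reads is not an order of molecules. As a mean share of the counts without miR-486, miR-182 had 4.19% ± 3.44 (SD, n = 39) and rank 6, after let-7f-5p, miR-181a, let-7a, miR-191 and let-7i-5p.

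Library totals, with 1 row per mature name, were between 1634831 and 13494765 counts, and without miR-486 they were between 389906 and 6343113. Levels are given below as scaled CPM, the usual CPM measure of read counts after scaling by the upper quartile (75%) of the counts of tested miRNAs. A library with much miR-486 has a small scaling factor, so its scaled CPM of miR-486 can exceed its raw CPM several times over. The share of miR-182 in the counts without miR-486 is given beside it.

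On this scale the medians of miR-182 over all 13 pigs, youngest age first, were 10229, 6981 and 3195. In control pigs its level was 9261 ± 4150 scaled CPM (SD, n = 8) at day 11, from 3995 to 14814 with a median of 9672. At day 20 it was 8024 ± 8126 (SD, n = 8), from 918 to 23649 with a median of 5791. At day 56 it was 3717 ± 2623 (SD, n = 8), from 380.5 to 8573 with a median of 3449. The median was lower at each later age, but the ranges of the 3 ages overlapped, and at day 20 the pigs were spread most widely, with control replicates 4 and 3 far above the rest.

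In topsoil pigs, replicates 1 to 5 had 14373, 24943, 14899, 1409 and 9067 scaled CPM of miR-182 at day 11. They had 28231, 6328, 9459, 6981 and 9805 at day 20, and 2162, 3299, 12775, 2970 and 2049 at day 56. Topsoil replicate 4 was the low library at day 11, replicate 1 the high one at day 20 and replicate 3 the high one at day 56. The other 4 topsoil libraries of day 56 were below every topsoil library of day 20.

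**Figure D2:**
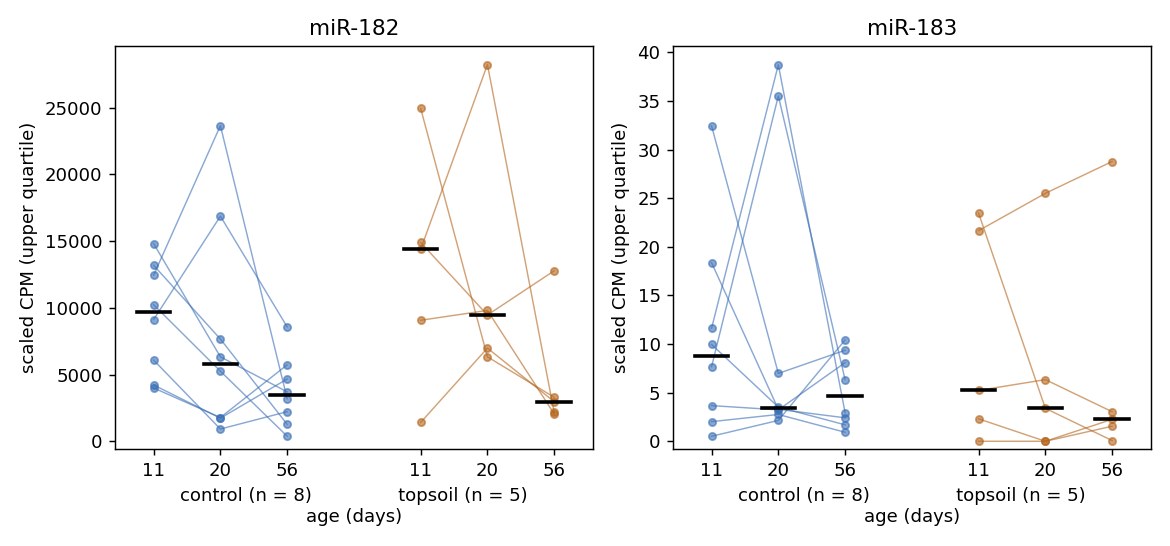
Scaled CPM of miR-182 (left) and miR-183 (right) at day 11, day 20 and day 56, drawn at equal spacing, with 1 point per library, thin lines joining the libraries of a pig and black bars at the median of each group. Control pigs (n = 8) are blue and topsoil pigs (n = 5) are brown; the miR-182 median of control pigs is 9672, 5791 and 3449 at the 3 ages, and the ranges of the ages overlap.

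The change with age was tested over all 13 pigs by the quasi-likelihood test of edgeR, with p-values adjusted by Benjamini-Hochberg and called at a rate of false discoveries of 0.10, as the mean of the control and topsoil changes. From day 11 to day 56, miR-182 fell by 1.44 on the log2 scale (standard error, SE, 0.46, edgeR adjusted p = 0.0205), a direction that turned to 0.62 with scaling by total counts, and its scaled CPM was lower in 10 of 13 pigs. Control replicates 5 and 6 and topsoil replicate 4 were the pigs with a higher level at day 56. From day 20 to day 56 the log2 change was -1.19 (SE 0.48, edgeR adjusted p = 0.112), which turned to 0.57 with total counts. Between day 11 and day 20 it was -0.25 (SE 0.43, edgeR adjusted p = 0.944), and 0.0472 with total counts. With 1 pig left out that value ran from -0.43 without topsoil replicate 4 to -0.0024 without topsoil replicate 2. So 1 of the 2 tested members was called from day 11 to day 56, where 53 of the 209 miRNAs (25.4%) were called. From day 20 to day 56, 0 of 2 members were called by edgeR, against 34 of 209 (16.3%). There 1 member and 50 miRNAs had an unadjusted p under 0.05. DESeq2 and limma each called 1 member, among 51 and 49 of the 209 miRNAs. From day 11 to day 20, 0 of 2 members and 0 of 209 miRNAs (0%) were called by edgeR, 0 members and 12 miRNAs had an unadjusted p under 0.05, and DESeq2 and limma called 0 members and 4 and 2 miRNAs. In each of these counts the member called was miR-182.

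With total counts the log2 change of miR-182 from day 11 to day 56, 0.62, had an adjusted p of 0.226 from edgeR, and there the median of all 209 miRNAs was 2.38. With the upper quartile the median of all miRNAs was 0.46, with TMM 0.29 and with totals that leave out miR-486 it was 0.14. Relative to that median, miR-182 was lower with each of these scalings. The log2 differences were -1.91 with the upper quartile, -1.93 with TMM, -1.76 with total counts and -1.91 without miR-486. A scaling shifts the changes of all miRNAs by nearly the same amount. The likeness of these differences was therefore largely fixed in advance and is no separate check. With the upper quartile, 9 of the 209 miRNAs had a lower log2 change than miR-182, and 36 of the 53 called miRNAs rose.

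The call of miR-182 also rested on 1 pig. Without topsoil replicate 2, which had the highest miR-182 level at day 11, the log2 change was -1.09 with an adjusted p of 0.151 from edgeR. With each other pig left out in turn the call held, and over all 13 such fits the adjusted p from edgeR was between 0.00266 and 0.151. In the 14 libraries whose sample characteristics give the same age as the column name, 5 of day 11, 5 of day 20 and 4 of day 56, a choice made after seeing the data and fitted without the pig, the log2 change was -3.59 (SE 1.01, edgeR adjusted p = 0.0365). In those libraries it was -2.46 from day 20 to day 56 (SE 0.84, edgeR adjusted p = 0.109), and from day 11 to day 20 it was -1.13 (SE 0.60, edgeR adjusted p = 0.369).

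The share of miR-182 among the counts without miR-486 had the same order. In control pigs its median was 5.89% on day 11, 3.07% on day 20 and 1.32% on day 56. The medians of topsoil pigs were 5.34%, 4.47% and 1.39%. Ranked by count within each library, with miR-486 included, miR-182 had a median rank of 6 at day 11, 7 at day 20 and 13 at day 56, and across all libraries it was between rank 4 and rank 35, the latter in control replicate 7 at day 56. That library had the fewest counts of all, and without it alone, also chosen after seeing the data, the log2 change from day 11 to day 56 was -1.25 (adjusted p = 0.0377 from edgeR).

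Set against miR-486, miR-182 was higher at day 56 than at day 11 in most pigs. In control pigs there were between 1.77 and 44.4 miR-182 reads per 1000 miR-486 reads at day 11, with a median of 4.53. At day 20 there were between 0.617 and 22.4, with a median of 6.01, and at day 56 between 7.08 and 31.2, with a median of 13.4. The ranges of the 3 ages overlapped. Control replicate 4 at day 11 had the highest ratio of any control library, and the next at day 11, control replicate 7 with 7.92, was still above the lowest of day 56.

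In topsoil pigs, replicates 1 to 5 had 4.42, 16.0, 5.86, 1.39 and 16.8 miR-182 reads per 1000 miR-486 reads at day 11. They had 6.45, 14.1, 4.77, 2.49 and 7.40 at day 20, and 16.6, 15.1, 67.5, 40.3 and 60.6 at day 56. Every topsoil pig had a higher ratio at day 56 than at day 20, and the 5 libraries of day 56 lay above the 5 of day 20. Between day 11 and day 56 the ranges met, as replicates 2 and 5 were already high at day 11.

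**Figure D3:**
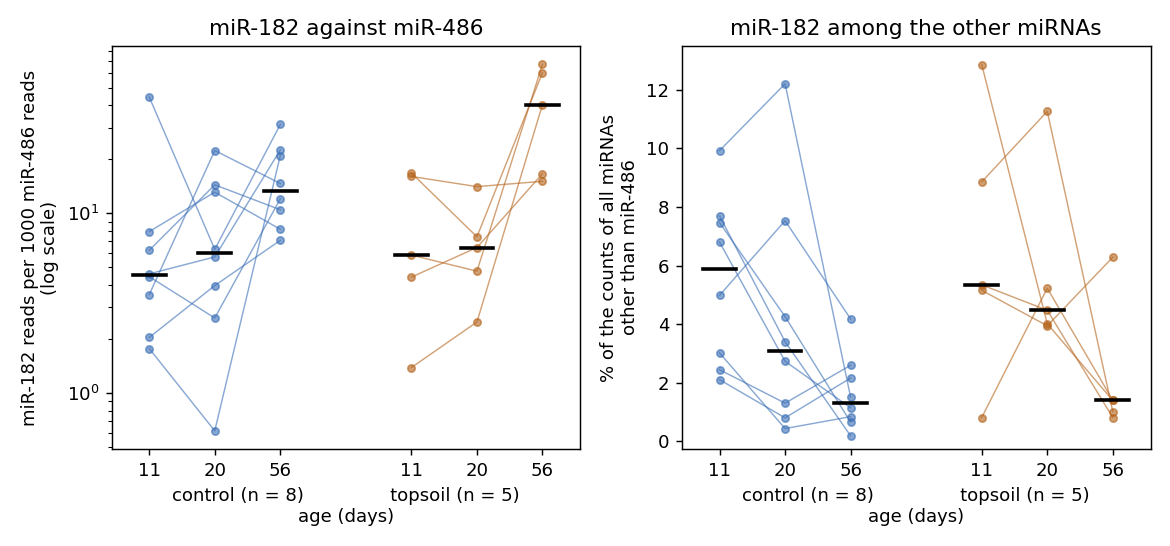
miR-182 reads per 1000 miR-486 reads on a log axis (left) and miR-182 as a percentage of the counts without miR-486 (right), at day 11, day 20 and day 56, with 1 point per library, lines joining the libraries of a pig, black bars at group medians, control pigs (n = 8) in blue and topsoil pigs (n = 5) in brown. The median of control pigs goes from 4.53 to 13.4 on the left between day 11 and day 56, and from 5.89% to 1.32% on the right.

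With the miR-486 count of each library in place of the library size, the log2 change of miR-182 from day 11 to day 56 was 1.84 (SE 0.57, edgeR adjusted p = 0.00261), and the ratio was higher in 11 of 13 pigs. From day 20 to day 56 it was 1.60 (SE 0.63, edgeR adjusted p = 0.0218), higher in 10 of 13 pigs, and from day 11 to day 20 it was 0.25 (SE 0.53, edgeR adjusted p = 0.815). Both tested members rose against miR-486 from day 11 to day 56, among 192 of the 208 tested miRNAs other than miR-486 (92.3%), so this count is near the background. From day 20 to day 56 both members rose among 166 of 208 (79.8%), and from day 11 to day 20, 0 members and 0 of 208 (0%) were called by edgeR, with 0 members and 5 miRNAs at an unadjusted p under 0.05. The median log2 change of the 208 miRNAs from day 11 to day 56 was 3.77, above that of miR-182, and 9 of the 208 had a lower log2 change than miR-182. In the 14 libraries with matching ages, the miR-182 change against miR-486 was 2.39 from day 11 to day 56 (adjusted p = 0.181 from edgeR) and 2.24 from day 20 to day 56 (adjusted p = 0.171 from edgeR), so that 1 of the 2 members was called in each. These fits called 176 and 169 of the 208 miRNAs, with median log2 changes of 7.12 and 5.61. From day 11 to day 20 the miR-182 change there was 0.15 (SE 0.92).

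miR-486 itself fell by 3.34 on the log2 scale from day 11 to day 56 (SE 0.54, edgeR adjusted p = 2.4e-05), and its scaled CPM was lower in 13 of 13 pigs. Over the alternatives other than leaving out 1 pig, its log2 change ran from -6.69 to -1.21, the latter with total counts. In its change from day 11 to day 56, miR-182 lay between miR-486 and the median miRNA with each scaling above, an order that scaling hardly alters. In a mixture of cells, fewer cells of a type and less RNA per cell cannot be told apart.

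Markers of cell types moved with age as well, in a fit that called 36 of the 209 miRNAs higher and 17 lower from day 11 to day 56. The erythroid list holds miR-486, miR-451 and miR-144, and 3 of 3 fell from day 11 to day 56, miR-451 by 1.62 (SE 0.33, edgeR adjusted p = 0.000460) and miR-144 by 2.51 (SE 0.64, edgeR adjusted p = 0.00460). With total counts 1 of the 3 had a positive log2 change, of 0.36, and 1 was called lower. All 3 lay below the median of all miRNAs with the upper quartile, TMM, total counts and totals without miR-486. That position is one that scaling hardly alters. The summed level of this list was between 280626 and 3741656 scaled CPM at day 11, with a median of 1958472, between 343140.4 and 4374546 at day 20, with a median of 1325132, and between 33908 and 808943 at day 56, with a median of 130417. Nearly all of it was miR-486, its most abundant member, and miR-144 was at 0 in 2 libraries.

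The lymphocyte list had 6 entries, of which 5 were tested. From day 11 to day 56, 3 of the 5 were called higher and 0 were called lower. Those called were miR-150, miR-181a and miR-181b, with log2 changes of 0.87, 1.03 and 0.85. The other tested entries were not called, miR-155-5p at 0.86 (SE 1.03) and miR-342 in the opposite direction at -0.20 (SE 0.29). For this list and the next 2, the background is 36 of 209 miRNAs called higher and 17 called lower. The summed level was between 22404 and 85793 scaled CPM at day 11, with a median of 38606, and between 59935 and 144729.6 at day 56, with a median of 76631. At day 20 the median was 41344, and miR-181a had the most reads of the list. Among the leukocyte miRNAs miR-142 and miR-223, 1 of 3 was called higher, miR-142-5p by 1.55 on the log2 scale. miR-142-3p at 0.71 and miR-223 at 0.60 were not called. The sum of the leukocyte list at day 11 was between 215.5 and 1971, with a median of 1138. At day 56 it was between 1456 and 6948, with a median of 3436. In the platelet and vascular list 5 of 10 entries were tested and 1 was called lower, miR-143-3p by 1.66, while miR-143-5p was at 0 in all libraries. The other tested entries were not called and went both ways. miR-126-3p was at 0.91 (SE 1.27) and miR-126-5p at 1.15 (SE 0.85). miR-199a-3p and miR-199b-3p were at -0.86 (SE 1.36). These last had identical counts and are 1 measurement listed under 2 names. The sum of that list, in which miR-143-3p had the most reads, was between 37.3 and 291 scaled CPM at day 11, with a median of 81.0, and between 14.1 and 185 at day 56, with a median of 39.4. With total counts all 5 tested entries of that list had a positive change and 2 were called higher, as were 5 of 5 lymphocyte and 3 of 3 leukocyte entries, in a fit that called 162 of the 209 miRNAs with a median log2 change of 2.38, so the lymphocyte and leukocyte counts there are near the background. The part of these cell types in the changes of miR-182 was not tested.

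miR-183 was measured with few reads. In control pigs its median was 8.81 scaled CPM for day 11, 3.40 for day 20 and 4.65 for day 56, and its mean on day 56 was 5.28 ± 3.73 (SD, n = 8). Its lowest and highest values were 0.513 and 32.4 at day 11, 2.15 and 38.7 at day 20, and 0.926 and 10.4 at day 56. The counts behind these values were between 3 and 200 at day 11 and between 6 and 114 at day 56. The ranges of the 3 ages overlapped widely, and the high libraries were control replicate 1 at day 11 and control replicates 4 and 3 at day 20, the latter also the high ones for miR-182.

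In topsoil pigs, replicates 1 to 5 had 0, 23.5, 21.7, 2.31 and 5.23 scaled CPM of miR-183 at day 11. They had 0, 3.39, 25.5, 0 and 6.34 at day 20, and 2.25, 0.0728, 28.8, 1.55 and 3.04 at day 56, where the counts were 49, 1, 399, 28 and 58. Topsoil replicate 1 had no read of miR-183 at day 11 and day 20, and replicate 3 had the highest scaled CPM of the group at days 20 and 56. A count of 0 allows up to 3 counts, a limit that covers counting error only, since PCR reads without molecular identifiers are not independent molecules.

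The log2 change of miR-183 from day 11 to day 56 was -0.27 (SE 0.85, edgeR adjusted p = 0.831), with a lower scaled CPM in 9 of 13 pigs. The direction turned without topsoil replicate 2 (0.50), without topsoil replicate 5 (0.14) and in the 14 libraries of matching age (6.92, SE 5.32). From day 11 to day 20 it was -1.001 (SE 0.77) and was not called, with values from -0.53 with no replicate block for the pig to -1.81 without topsoil replicate 5 and -2.29 in the 14 libraries. Between day 20 and day 56 it was 0.73 (SE 0.95) and was not called. That direction turned with no replicate block (-0.0807), with limma (-0.0468) and without control replicate 6 (-0.14). In the 14 libraries the value was 9.21 (SE 4.50, edgeR adjusted p = 0.275). With total counts miR-183 was called at 2.45 (edgeR adjusted p = 0.0668), where 108 of the 209 miRNAs were called and the median of all was 1.79. miR-183 was also called higher from day 11 to day 56 with total counts, at 1.89 with an adjusted p of 0.0729 from edgeR, where 162 miRNAs were called and the median of all was 2.38. Against miR-486 it rose by 3.22 on the log2 scale from day 11 to day 56 (SE 1.10, edgeR adjusted p = 0.00647), with a higher ratio in 11 of 13 pigs, and by 3.60 from day 20 to day 56 (SE 1.32, edgeR adjusted p = 0.0157). The medians of all 208 miRNAs in the same fits were 3.77 and 2.99. The size of the miR-183 values moved with the setting: they were 2.07 and 2.33 with no replicate block and 10.07 and 10.48 in the 14 libraries (SE 3.33 and 3.32). The medians of all 208 miRNAs there were 3.72 and 3.12 with no replicate block, and 7.12 and 5.61 in the 14 libraries.

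miR-96-5p had reads in 6 libraries. Topsoil replicate 1 had 62 at day 20 and 4 at day 56, topsoil replicate 3 had 5 at day 56, control replicate 4 had 3 at day 11, and control replicate 7 had 1 at day 20 and 1 at day 56. The library with 62 reads of miR-96-5p had 0 of miR-183 and the highest scaled CPM of miR-182 of all 39 libraries. In the 33 libraries at 0, the limit of 3 counts corresponds to between 0.222 and 0.580 CPM without scaling. No fold change is given for miR-96-5p.

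The proportion of the members was compared with the counts of the same library, which needs no scaling. There were between 0 and 3.58 miR-183 reads per 1000 miR-182 reads, with a median of 1.04. The medians over all pigs were 0.870 at day 11, 1.10 at day 20 and 1.33 at day 56, close together beside the spread of libraries within an age. From day 11 to day 56 the log2 ratio of miR-182 to miR-183 changed by -0.76 ± 2.85 (SD, n = 13), with 0.5 added to the counts, and it was higher in 5 and lower in 8 pigs (two-sided exact permutation test by sign flips, p = 0.367). This was the single pair of tested members, and the difference was smaller than the spread between pigs, from -6.78 to 4.83. These extremes rest on few miR-183 reads, with 0 in topsoil replicate 1 at day 11 and 1 in topsoil replicate 2 at day 56.

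Whether topsoil changed the course of the members over age was tested by the treatment by age interaction. In edgeR's test 0 of 2 members and 0 of 209 miRNAs (0%) were called, 0 members and 22 miRNAs had an unadjusted p under 0.05, and DESeq2 and limma called 0 members and 0 and 2 miRNAs. For miR-182, the extra log2 change in topsoil pigs was 0.90 to day 20 (SE 0.88) and 0.02 to day 56 (SE 0.89), with an adjusted p of 0.877 from edgeR for both jointly. The value to day 20 was 0.0614 with total counts and 0.27 with no replicate block, and the value to day 56 was below 0 in 7 of the 13 fits that each left out 1 pig, from -0.69 without topsoil replicate 3 to 0.78 without control replicate 6. For miR-183 it was -1.97 (SE 1.66) and 0.20 (SE 1.49), with an adjusted p of 0.812 from edgeR, and the value to day 20 was -3.89 without topsoil replicate 5. With standard errors of this size, a difference of 1 log2 unit between the treatments was not detectable.

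Topsoil and control pigs were also compared at each age alone, with 5 and 8 libraries. At day 11 the log2 difference, topsoil against control, was 0.45 for miR-182 (SE 0.49) and -0.13 for miR-183 (SE 1.16). With 1 pig left out the miR-182 difference at day 11 ran from 0.10 without topsoil replicate 2 to 0.73 without topsoil replicate 4. At day 20 the differences were 0.68 for miR-182 (SE 0.65) and -2.10 for miR-183 (SE 1.28), and at day 56 they were 0.34 (SE 0.56) and 0.15 (SE 0.94). The groups overlapped for both members at every age. By edgeR, 0 of 2 members were called at each age, with 0 at an unadjusted p under 0.05 and 0 by DESeq2, against 0 of 209 miRNAs (0%) at day 11, 2 (0.957%) at day 20 and 0 (0%) at day 56. With 1 pig left out the count of miRNAs at day 20 was from 0 to 6. At an unadjusted p under 0.05 there were 7, 28 and 5 miRNAs at the 3 ages, and DESeq2 called 1, 9 and 0. For miR-182 the direction turned with the setting: with total counts the log2 difference was -0.24 at day 11 and -0.22 at day 20, at day 20 it was -0.0129 without topsoil replicate 1, and at day 56 it was -0.54 without topsoil replicate 3. With total counts the value at day 56 was larger in the same direction, 0.99 (SE 0.44, edgeR unadjusted p = 0.0333, adjusted p = 0.901). For miR-183 the direction turned in 4 of the 13 fits that each left out 1 pig at day 11, up to 0.74 without control replicate 1, and in 4 at day 56, down to -1.64 without topsoil replicate 3. At day 20, 2 of the 5 topsoil libraries were at 0 for miR-183, and its log2 difference was -0.74 without the RNA quality index in the fit and -5.04 without topsoil replicate 5 (SE 1.85, edgeR adjusted p = 0.342).

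The 19 libraries whose sample characteristics give the same treatment held 4 control and 1 topsoil library at day 11, 4 and 1 at day 20, and 6 and 3 at day 56. A lone topsoil library at an age is assumed to vary like the other groups. In these libraries edgeR called 0 members in the interaction and at each age. At day 56 the log2 difference, topsoil against control, was 0.51 for miR-182 (SE 0.53) and 0.32 for miR-183 (SE 1.21). At day 11, where the topsoil library was replicate 4, the low one for miR-182, the miR-182 difference turned to -2.40 (SE 1.13, edgeR unadjusted p = 0.0336, adjusted p = 0.959). At day 20 the miR-182 difference was 1.86 (SE 3.80). That of miR-183 was -2.59 at day 11 (SE 2.44) and -0.14 at day 20 (SE 6.42). The extra change of miR-182 in topsoil pigs, fitted without the pig, was 3.56 to day 20 (SE 2.35) and 3.29 to day 56 (SE 1.63), and that of miR-183 was 5.44 (SE 3.87) and 2.96 (SE 2.53), the former of turned direction. All 4 of these extra changes rest on the lone topsoil library of day 11.

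Across the 39 libraries, the miRNAs whose scaled log2 CPM was most like that of miR-182 were let-7c, miR-9841-3p, miR-10b, miR-10a-5p and miR-181d-5p, with Spearman coefficients of 0.747, 0.704, 0.687, 0.660 and 0.659. miR-486 had rank 6 of 208 with 0.637, and miR-183 had rank 11 with 0.510. The other erythroid markers were not close to miR-182 in this measure, with 0.0482 for miR-451 and -0.0546 for miR-144. Within the 13 libraries of day 20 both were at -0.830. At day 11 the coefficients were -0.181 and -0.478, and at day 56 they were -0.0385 and -0.204. miR-486, the most abundant of the erythroid markers, had the opposite sign within each age, with 0.346 at day 11, 0.599 at day 20 and 0.813 at day 56.

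miR-183 was most like miR-28-3p, miR-9841-3p, miR-182, miR-181d-5p and miR-342, with Spearman coefficients of 0.556, 0.537, 0.510, 0.490 and 0.480. The pair miR-182 and miR-183 had 0.571, 0.385 and 0.714 within day 11, day 20 and day 56, with 13 libraries each. When counts were scaled by totals that leave out miR-486, the coefficient of the pair was 0.485 and that of miR-182 with miR-486 was 0.654. These coefficients describe libraries that share pigs, ages and the scaling factor of each library, and no test was made of them.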

How the data were processed

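The counts per mature miRNA were used as the authors deposited them: whole numbers from small RNA libraries of 39 PBMC samples, made per the study's methods by miRDeep2 on Sscrofa11.1 after FastQC 0.11.3 and Trim Galore 0.4.5. The table has 479 entries for 457 mature names, and each name is represented by its entry of largest total. Those read in 17 or more libraries, with more than 2 reads on average, were tested with edgeR 4.0.16 in R 4.3.3, with upper quartile scaling, pig as a block, age, treatment by age and the RNA quality index, at a false discovery rate of 0.10 after Benjamini-Hochberg adjustment. Treatments at one age were compared with the RNA quality index alone. For values relative to miR-486, the log of its count replaced the library size. DESeq2 1.42.0, limma 3.58.1 with voom, other scalings, no filter, no block and each pig left out were the alternatives. Pairing comes from the pig number in the column names, and the libraries of a pig deviated together only weakly, as given above. Sequences were read from the RefSeq genome of Sscrofa11.1 with Python 3.11.15 and numpy 2.4.6. The main fit was also run on 1 simulated set of counts, in which 40 of 209 miRNAs changed 4-fold at day 56. From day 11 to day 56 it called 30 of these 40, all in the right direction, and 3 unchanged miRNAs. The simulation held no effect of pig or treatment and no change of miR-486 with age, so it does not cover these.

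Named were the members, miR-486, the marker lists and, for each tested member, the 5 miRNAs with the highest Spearman coefficient to it over 39 libraries (log2 CPM, pseudocount 1). The nearest neighbours of miR-182 in mean share and in genome position were named after their values were seen. The members and lists were chosen with earlier results of these data known.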

Additional observations from a re-analysis of the deposited data

Results flagged for a closer look

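In groups of 5 or 8 libraries, 6 of 24 groups of miR-182 and miR-183 values held 1 library far from the others, where chance flags about 1 in 20 groups. The groups are not independent, since the same libraries and members recur in them. At day 11, control replicate 4 had 44.4 miR-182 reads per 1000 miR-486 reads, where the next library of its group had 7.92. At day 20, topsoil replicate 1 had 28231 scaled CPM of miR-182, where the next had 9805, and at day 56 topsoil replicate 3 had 12775, where the next had 3299.

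Topsoil replicate 3 was also far above its group for miR-183, with 25.5 scaled CPM at day 20 and 28.8 at day 56, where the next libraries had 6.34 and 3.04. At day 20 it had 2.70 miR-183 reads per 1000 miR-182 reads, where the next had 0.647. For miR-96-5p, single libraries had reads where the rest of their group was at 0: 62 in topsoil replicate 1 at day 20, 3 in control replicate 4 at day 11, and 1 in control replicate 7 at day 20 and again at day 56. In such a group any single library with a read stands apart, so the chance rate does not apply to these 4 groups. A count of 1 or 3 is within the limit of 3 counts that a count of 0 allows.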

How the results depend on the processing

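Of the recomputed counts of members called and ratio values, 209 were on the same side as the value reported and 14 moved. Many of the 209 come from comparisons in which 0 members were called throughout. These were day 11 to day 20, also against miR-486, the interaction, and topsoil against control at each age. Leaving out a day 56 library could not alter topsoil against control at day 11 and day 20. There were 533 recomputed log2 values of miR-182, of miR-183 and, for changes with age only, of miR-486, which is not a member. Of these, 477 were the same in direction and side of the threshold, 3 lost the call, 11 gained it and 42 changed direction. The values of miR-486, 23 for each age comparison, were all the same, so the 477 overstate how stable the members were. The ratio of miR-182 to miR-183 kept its direction and side with each pig left out and with 1 added to the counts. Its mean log2 change from day 11 to day 56 ran from -1.23 to -0.26 with 1 pig left out.

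From day 20 to day 56, 1 member in place of 0 was called with TMM, total counts, totals without miR-486, DESeq2, limma or no RNA quality index. It was also 1 with no replicate block for the pig. Of the 209 miRNAs, 34, 108, 32, 51, 49, 48 and 48 were called in these fits, in that order. With total counts the member was miR-183 (2.45), where the median of all miRNAs was 1.79, so that call is near the background. With 1 pig left out the count of members was from 0 to 1, beside 24 to 48 miRNAs. It was 1 without control replicate 2, 5 or 6 or topsoil replicate 3. From day 11 to day 56 it was from 0 to 1, beside 48 to 60 miRNAs, with 0 without topsoil replicate 2. Against miR-486, 1 member in place of 2 was called from day 20 to day 56 and from day 11 to day 56 with only the 14 libraries of matching age and no replicate block, an alternative chosen after seeing the data. Those fits called 169 and 176 of the 208 miRNAs.

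With total counts, the log2 change of miR-182 was 0.0472 from day 11 to day 20, 0.57 from day 20 to day 56 and 0.62 from day 11 to day 56, and topsoil against control was -0.24 at day 11 and -0.22 at day 20. That of miR-183 from day 11 to day 56 was 1.89, and 6.92 in the 14 libraries (standard error 5.32). From day 20 to day 56 miR-183 was at -0.0807 with no replicate block and -0.0468 with limma. The extra change of miR-182 to day 56 in topsoil pigs was -0.0879 with no replicate block, -0.0938 with no RNA quality index and -0.35 without the day 56 library of control replicate 7, chosen after seeing the data, and that of miR-183 was -0.33 with limma. In only the 19 libraries of matching treatment, with no replicate block and chosen after seeing the data, the extra change of miR-183 to day 20 was 5.44, and topsoil against control at day 11 was -2.40 for miR-182. Against miR-486, miR-182 from day 11 to day 20 was at -0.0055 with no replicate block.

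With 1 pig left out, topsoil against control was from 0.10 to 0.73 at day 11, from -0.0129 to 1.13 at day 20 and from -0.54 to 0.86 at day 56 for miR-182, and from -0.71 to 0.74 at day 11, from -5.04 to -1.54 at day 20 and from -1.64 to 1.02 at day 56 for miR-183. The extra change to day 56 was from -0.69 to 0.78 for miR-182 and from -0.86 to 1.19 for miR-183. The change of miR-183 was from -0.91 to 0.50 from day 11 to day 56, from -0.14 to 1.95 from day 20 to day 56, and from -0.64 to 0.0364 from day 11 to day 20 against miR-486. Over all miRNAs, 162 with total counts and 33 in the 14 libraries were called from day 11 to day 56, in place of 53. From day 20 to day 56 these counts were 108 and 15, in place of 34. For each of these, the cause was not tested. Low counts limit miR-183 and miR-96-5p.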
